A study of Mus musculus with 16 samples.

Results

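The genes described here are 37 genes of DNA replication and S phase, the stretch of the cell cycle in which the genome is copied. They are given by name, as a list put together with earlier results of these data known, and each of the 37 was found on a single row of every table, among 24421 gene names in all. All 37 passed the filter on low values, a mean of at least 0.1 TPM (a level per unit of transcript length and of library size) over the 16 libraries. The libraries come from the dentate gyrus, the region of the hippocampus where new neurons arise in the adult.

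Copying a genome needs a fixed set of machines. In G1 phase Cdc6 and Cdt1 place the ring of Mcm2 to Mcm7 proteins on origins; Cdc45, the GINS complex and Mcm10 turn that ring into the moving helicase; DNA polymerase alpha with primase starts each strand, and polymerases epsilon and delta extend the leading and the lagging strand on the Pcna clamp, which the Rfc complex loads. Ribonucleotide reductase, thymidylate synthase, dUTPase and thymidine kinase supply the building blocks, and Chaf1a, Chaf1b, Uhrf1 and Slbp restore histones and DNA methylation behind the fork. Many of these genes are targets of E2F transcription factors, which RB holds in check. The protein p16Ink4a inhibits the cyclin D dependent kinases that inactivate RB, and it accumulates with age. Pcna, Rpa2, Fen1, Lig1 and several others also serve DNA repair, so that their mRNAs are found in cells that do not divide. In the adult dentate gyrus dividing cells are a small minority beside granule neurons and glia.

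The study asked how the loss of p16 and physical exercise act on the dentate gyrus of aged mice, where running is a stimulus for neural progenitors. All mice were male, of strain C57BL/6 and 1 year old. The groups were sedentary p16Ink4a +/+ mice (p16 WT CTL), sedentary p16Ink4a -/- mice (p16 KO CTL), p16Ink4a +/+ mice with a running wheel for 12 days (p16 WT RUN) and p16Ink4a -/- mice with the wheel for the same time (p16 KO RUN), with 4 libraries in each and the dentate gyri of 2 mice pooled in each library. Per the study's methods the deletion is a germline knockout, made in another strain and then bred to C57BL/6, that leaves p19Arf functional, so every cell of the knockout mice lacks p16. Sets A to E are the study's names for its pairwise comparisons. Set A compares running with sedentary knockouts and Set C running with sedentary wild-type mice. Set B compares the genotypes when sedentary and Set E when running, each as knockout against wild-type, and Set D compares running knockouts with sedentary wild-type mice. Most pairs of sets share a group of libraries, so their values stand side by side here and are not evidence for each other. Only the pairs of Sets A and C and of Sets B and E have no library in common.

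Several libraries stood apart. The summed level of 8 RNAs retained in the nucleus, Malat1 among them, was 479 to 977 TPM in p16 WT CTL replicate 2 and p16 KO CTL replicates 6 and 7, against 1828 to 2533 TPM in the other 13 libraries. Sequencing depth, taken as coverage per unit of FPKM relative to the mean library, was highest in 2 of those 3 (1.97 and 1.71) and ranged from 0.634 to 0.893 in the 8 running libraries, with the shallowest among the p16 WT RUN libraries (0.634 to 0.877). Results that rest on the 3 libraries low in nuclear RNA are therefore also given without them. The defining markers of dentate granule neurons were present in every library, with a summed level over 8 genes of 714 TPM in p16 KO CTL replicate 8 to 1848 TPM in p16 WT CTL replicate 3. Markers of choroid plexus summed to 213 TPM in p16 KO CTL replicate 7, against 16.8 to 62.2 TPM in the other libraries. Those of blood summed to 1185 TPM in p16 WT CTL replicate 1, against 270 to 726 TPM in the others. Cdkn2a, the gene that encodes p16, reached at most 0.586 TPM in the wild-type and 0.413 TPM in the knockout libraries and was listed at 0 in some libraries of every group, so it did not check the genotypes. Across genes, which are not independent replicates, Pearson's r between libraries of the same group was at least 0.972.

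To show the DNA in front of these genes, the RefSeq promoter windows (GRCm38.p6, which is mm10), from 250 bases before to 50 bases after each annotated start, were matched by symbol. Of the 37 genes 31 matched, with 36 windows, and Mcm4, Gins1, Gins2, Gins4, Pole and Rfc2 were not among them. The words TTTCCCGC, TTTCGCGC, TTTGCCGC and TTTGGCGC, forms of the E2F site, were searched on both strands. At least 1 of them stood in 13 of the 36 windows (36.1%), against 744 of 32851 windows of all genes (2.26%). The words TTTGAA and TTCGAA, forms of the cell cycle homology region of genes expressed in mitosis, stood in 6 of the 36 windows (16.7%), against 19.2% of all windows. Windows with an E2F word belonged to Cdc6, Cdt1, Gins3, Lig1, Mcm3, Mcm5, Mcm6, Mcm7, Pola1, Pold1, Pole2, Rfc3 and Uhrf1. A match is a run of letters and not a measured binding site. The following windows are shown because 4 of them belong to genes that were higher in Set A and the last to Mcm6, the most abundant helicase gene. They run 5′ to 3′ on the strand of the gene, and capitals mark the E2F words in either orientation; in Mcm5 and in Mcm6 a pair of words on opposite strands overlaps and gives a single longer run.
Cdt1 promoter (chr8:122567765-122568064, plus strand): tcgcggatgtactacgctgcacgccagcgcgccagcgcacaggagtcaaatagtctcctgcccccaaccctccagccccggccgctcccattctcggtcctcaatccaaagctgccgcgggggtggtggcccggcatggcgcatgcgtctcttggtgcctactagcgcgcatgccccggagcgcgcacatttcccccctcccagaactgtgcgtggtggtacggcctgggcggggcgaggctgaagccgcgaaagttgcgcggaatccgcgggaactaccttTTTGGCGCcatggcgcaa
Mcm5 promoter (chr8:75109259-75109558, plus strand): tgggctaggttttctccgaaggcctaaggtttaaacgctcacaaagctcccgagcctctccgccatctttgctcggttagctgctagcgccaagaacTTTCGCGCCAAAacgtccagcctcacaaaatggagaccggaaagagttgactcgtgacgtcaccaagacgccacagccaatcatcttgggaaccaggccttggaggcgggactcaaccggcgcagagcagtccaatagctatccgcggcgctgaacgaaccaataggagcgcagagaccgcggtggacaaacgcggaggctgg
Mcm7 promoter (chr5:138171834-138172133, minus strand): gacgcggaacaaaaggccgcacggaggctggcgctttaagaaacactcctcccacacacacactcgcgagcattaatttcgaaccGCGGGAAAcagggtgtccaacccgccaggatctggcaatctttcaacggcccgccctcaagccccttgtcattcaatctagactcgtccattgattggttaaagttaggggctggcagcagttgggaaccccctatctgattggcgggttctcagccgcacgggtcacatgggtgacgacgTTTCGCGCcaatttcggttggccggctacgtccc
Uhrf1 promoter (chr17:56304063-56304362, plus strand): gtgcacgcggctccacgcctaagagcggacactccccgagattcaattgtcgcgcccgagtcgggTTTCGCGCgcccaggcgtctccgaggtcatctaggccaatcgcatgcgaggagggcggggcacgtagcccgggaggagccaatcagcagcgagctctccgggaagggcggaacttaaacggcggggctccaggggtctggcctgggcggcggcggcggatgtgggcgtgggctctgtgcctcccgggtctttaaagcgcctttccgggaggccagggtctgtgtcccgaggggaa
Mcm6 promoter (chr1:128359656-128359955, minus strand): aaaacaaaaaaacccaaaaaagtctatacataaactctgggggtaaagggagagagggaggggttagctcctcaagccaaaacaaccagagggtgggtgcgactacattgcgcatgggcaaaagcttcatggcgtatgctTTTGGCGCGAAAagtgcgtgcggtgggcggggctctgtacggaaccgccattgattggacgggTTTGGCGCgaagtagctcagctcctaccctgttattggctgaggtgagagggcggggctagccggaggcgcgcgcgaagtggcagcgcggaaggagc

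In Cdt1 the word began at position 33 after the start, in Mcm7 at 165 bases before the start and again at position 17 after it, and in Uhrf1 at 185 bases before it. The overlapping pair of Mcm5 began 153 bases before the start and that of Mcm6 110 bases before, with a further word 47 bases before in Mcm6. The Uhrf1 window printed is that of the later of its 2 annotated starts, and the Mcm7 window that of the earlier, each being the window that held a word. Of the 7 genes higher in Set A, 6 had a window and 4 of those held an E2F word, and of the 25 other matched genes 9 did. No test of that difference was made.

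The 37 genes spanned levels from 0.173 to 81.9 TPM on average over the 16 libraries. Pcna was the most abundant at 81.9 TPM, followed by Rfc2 at 36.7, Mcm6 at 31.4, Dut at 27.9, Gins4 at 26.8 and Slbp at 23.4 TPM. In all, 12 genes lay at 10 TPM or more, 19 between 1 and 10 TPM and 6 under 1 TPM. The lowest were Tk1 (0.750), Uhrf1 (0.666), Pole2 (0.525), Mcm10 (0.307), Chaf1b (0.263) and Cdc6 (0.173 TPM). The spread between libraries grew as the level fell: the median coefficient of variation was 9.75% for the genes at 10 TPM or more, 18.1% for those between 1 and 10 TPM and 59.9% for those under 1 TPM. The last are read from thin coverage, 0.461 to 2.03 reads deep per base on average, and Chaf1b was listed at 0 in 2 libraries and Cdc6 in 1. Within the same complex levels differed widely. Of the GINS subunits, which act in equal numbers, Gins4 was at 26.8 TPM while Gins2, Gins3 and Gins1 were at 3.72, 3.49 and 1.49 TPM, and of the Mcm2 to Mcm7 ring Mcm6, Mcm7 and Mcm4 were at 31.4, 12.7 and 10.5 TPM while Mcm5, Mcm2 and Mcm3 were at 4.87, 4.73 and 3.35 TPM. These averages hide neighbours that did not separate: the ranges over the 16 libraries overlapped between Mcm5 (3.17 to 6.54 TPM) and Mcm2 (2.66 to 6.90 TPM).

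**Figure D1:**
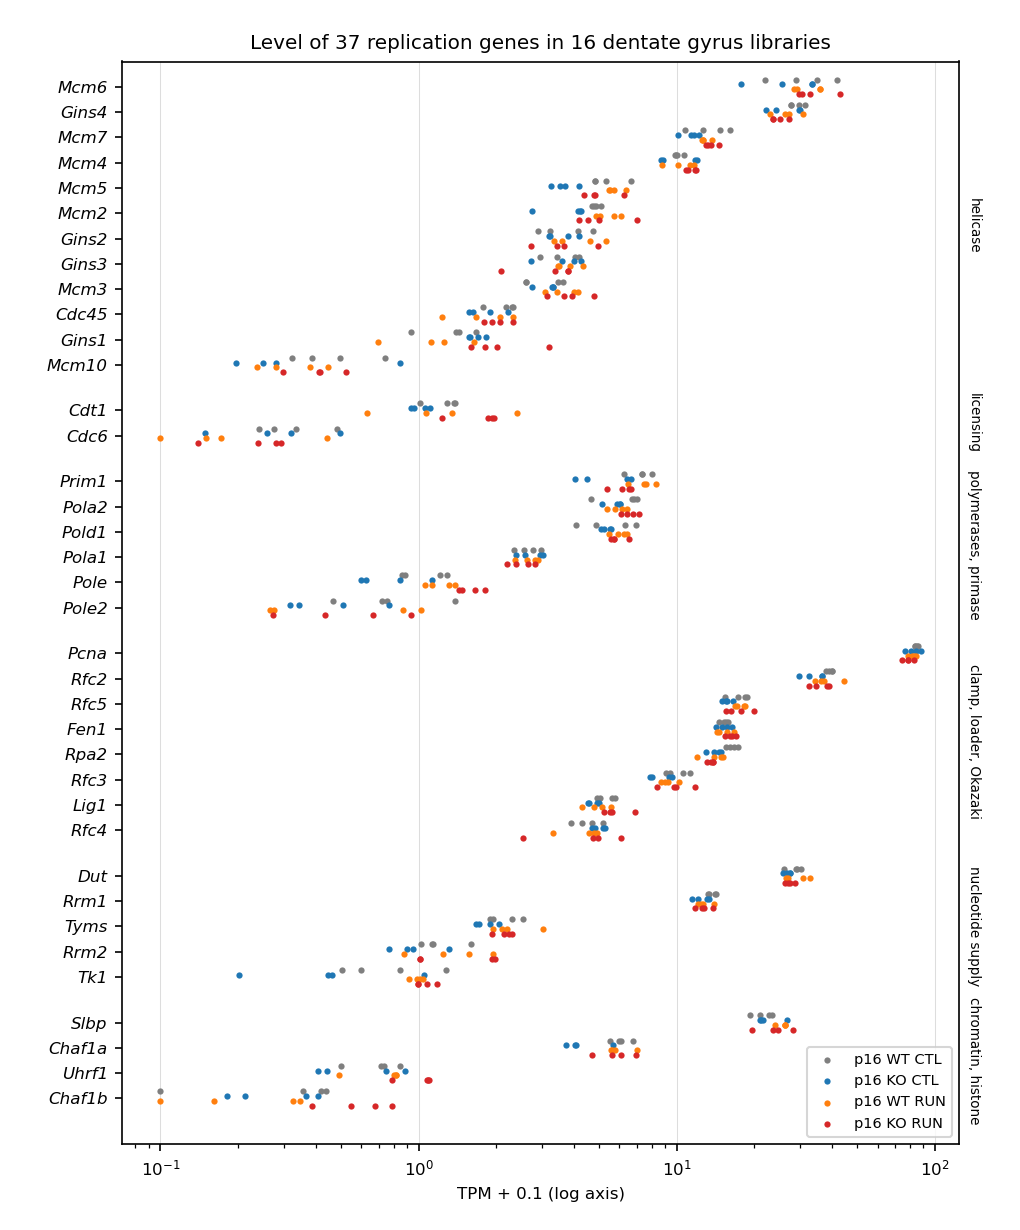
Level of each of the 37 genes in each of the 16 libraries, grouped by role, on a log axis of TPM + 0.1; each point is 1 library and the colour gives its group. Pcna sits between 74.7 and 88.1 TPM in every library with little spread, while Chaf1b and Cdc6 reach the left edge, where libraries with 0 TPM lie.

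Of the 37 genes 7 were higher in p16 KO RUN than in p16 KO CTL (Set A) at an unadjusted p under 0.05, the study's own threshold, and 0 were lower. The 7 were Pole, the catalytic subunit of polymerase epsilon; Cdt1, a licensing factor; Chaf1b, a subunit of the histone chaperone CAF-1; Tk1, thymidine kinase; Mcm5 and Mcm7 of the helicase ring; and Uhrf1, which carries DNA methylation through replication. Their log2 fold changes ran from 0.20 (Mcm7) to 1.17 (Tk1), and the median over all 37 was 0.13, against 0.018 over all genes tested. The 7 are 18.9% of the 37. Over all 17317 genes tested 10.7% were called higher and 7.74% lower, so the share called in either direction was close to the background of 18.5%, and whether the absence of lower calls sets the 37 apart was not tested. No gene of the 37 had an adjusted p under 0.05 in Set A (Benjamini-Hochberg over all tested genes), the smallest being 0.157 for Pole, and 3 of all genes did. With TPM left as deposited 14.4% of all genes were called higher and 4.09% lower. Under quantile normalization 8.86% were higher and 8.93% lower, and the median over the 37 was smaller. The balance of directions over all genes thus depended on the scaling.

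The same contrast in wild-type mice, Set C, shares no library with Set A. There 1 of the 37 was higher (Slbp) and 1 lower (Rpa2), 0 had an adjusted p under 0.05, and the background was 2.69% higher and 2.13% lower. Of the 7 genes higher in Set A none was called in Set C: their log2 fold changes there were 0.20 for Pole, -0.056 for Cdt1, -0.47 for Chaf1b, 0.38 for Tk1, 0.088 for Mcm5, -0.073 for Mcm7 and 0.050 for Uhrf1. Over the 37 the estimate was larger in Set A than in Set C for 27 genes, where 53.0% of all genes tested had the larger estimate in Set A, and no test of that difference was made. Whether running acts differently in the genotypes was tested with the interaction over all 16 libraries. In it Pole was called, with a larger effect of running in the knockout, at 0.78 (95% interval 0.13 to 1.43, adjusted p = 0.797), and no gene in the other direction. That is 1 of 37, against a background of 2.95% of all genes called higher and 2.54% lower, so the share was no larger than that of all genes. For the other 6 genes higher in Set A the interaction missed the threshold, with 95% intervals of -0.20 to 1.71 for Cdt1, -0.068 to 3.07 for Chaf1b, -0.37 to 1.93 for Tk1, -0.11 to 0.72 for Mcm5, -0.020 to 0.57 for Mcm7 and -0.21 to 1.54 for Uhrf1 on the log2 scale.

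**Figure D2:**
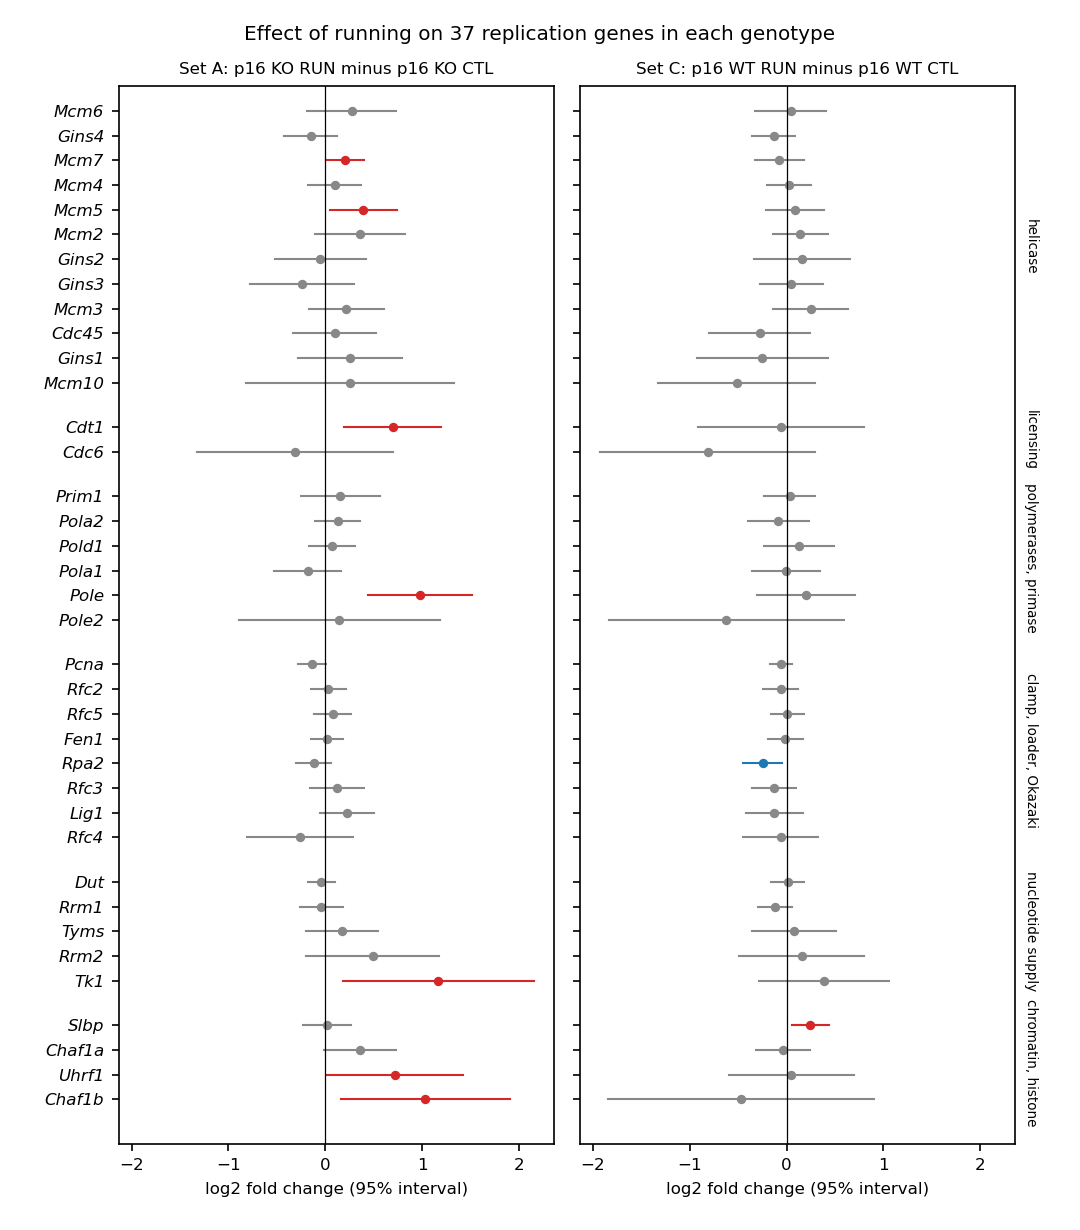
Log2 fold change of the 37 genes with running in knockout mice (Set A, left) and in wild-type mice (Set C, right), with 95% intervals from limma; red marks genes called higher and blue genes called lower at an unadjusted p under 0.05, and each side compares 4 libraries with 4. In Set A 7 genes are red and 0 blue, and in Set C Slbp is red and Rpa2 blue.

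Without the 3 libraries low in nuclear RNA, a choice made after the data were seen, Set A compared 4 libraries with 2 and kept 4 of its 7 calls. These were Pole at 0.68, Cdt1 at 0.76, Mcm7 at 0.27 and Chaf1b at 1.04, with 0 lower, and the median over the 37 was 0.18. Beside them 849 of all 17317 genes were higher and 621 lower. The interaction of Pole was then 0.56, no longer called, while Mcm7 at 0.42 and Pola2 at 0.33 were, beside 650 higher and 605 lower of all genes. The p16 KO CTL libraries left were replicates 5 and 8. Replicate 8 had the lowest granule neuron marker sum (714 TPM) and the lowest Mcm7 value (10.0 TPM) of all libraries. Its Pola2 value, 5.94 TPM, was the highest of its group. On all libraries, quantile normalization ended the Set A calls of Cdt1, Chaf1b, Mcm5, Mcm7 and Uhrf1, a nuclear RNA score as covariate those of Chaf1b, Mcm5, Tk1 and Uhrf1, a fit over all 16 libraries those of Chaf1b and Mcm7, a pseudocount of 1 that of Mcm7 and a pseudocount of 0.01 that of Uhrf1. Marker lists of other kinds of cells moved in Set A as well. Of 15 mitosis genes such as Mki67, 14 were tested and 6 were higher and 0 lower, with a median of 0.74; their summed level was 17.9 to 19.6 TPM in p16 KO RUN and 10.1 to 15.4 in p16 KO CTL, beside 14.1 to 16.6 in the running and 11.5 to 19.6 in the sedentary wild-type libraries. The oligodendrocyte list had 4 of 6 genes lower, with a summed level of 1132 to 1484 TPM in p16 KO RUN and 1458 to 2426 TPM in p16 KO CTL. The CA pyramidal neuron list had 3 of 7 lower (342 to 503 against 409 to 628 TPM), the astrocyte list 2 of 6 lower (2513 to 2922 against 2585 to 3749 TPM), the microglia list 2 of 7 lower (379 to 460 against 407 to 585 TPM) and the endothelium list 2 of 6 higher (73.9 to 112 against 42.8 to 86.2 TPM). The nuclear RNA list had 2 of 8 higher, with a median of 1.06 and a summed level of 1939 to 2316 TPM in p16 KO RUN and 479 to 2091 TPM in p16 KO CTL, and the dentate granule neuron list 1 of 8 higher, with a median of 0.28 (1241 to 1838 against 714 to 1464 TPM). The list of meninges and fibroblasts had 1 of 6 higher, that of oligodendrocyte precursors 1 of 6 lower, the neural stem cell list 1 higher and 2 lower of 8 and the neuroblast list 2 higher and 1 lower of 8. No marker of these lists was at 0 throughout a group. Their part in the differences of the replication genes was not tested. In such pooled tissue fewer cells of a type and less RNA per cell cannot be told apart.

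Between sedentary genotypes, Set B, 0 of the 37 were higher and 3 lower in the knockout: Mcm5, Chaf1a and Rfc2. The background was 3.15% of all genes higher and 3.54% lower, and the median over the 37 was -0.15. Between running genotypes, Set E, which has no library in common with Set B, 2 were higher in the knockout (Chaf1b and Gins1) and 1 was lower (Prim1), against 2.11% and 1.76% of all genes. Set D, which differs in both genotype and running, had 2 higher (Pole and Gins1) and 2 lower (Rpa2 and Gins4), against 4.97% and 3.66%. No adjusted p of the 37 was under 0.05, the smallest over Sets B to E being 0.302, for Rpa2 in Set D. Averaged over both treatments, the genotype effect was called for 1 gene higher in the knockout (Gins1) and 3 lower (Mcm5, Prim1 and Chaf1a), against a background of 3.87% and 3.25%, with no adjusted p under 0.674. Averaged over both genotypes, running was called for 3 genes higher (Pole, Tk1 and Mcm5) and 2 lower (Rpa2 and Pcna), against 9.87% and 8.02% of all genes. In this fit the share of the 37 was thus below that of all genes. The smallest adjusted p with running was 0.0819, for Pole, where 130 of all genes passed 0.05. Without p16 WT RUN replicate 11 or without p16 KO RUN replicate 13 the share of the 37 was above that of all genes. Without p16 KO CTL replicate 5 it was only slightly above, beside 2382 higher and 1784 lower of all genes. Without the 3 libraries low in nuclear RNA Set B had 0 calls among the 37, Set C kept Slbp and Set D kept Pole and Rpa2. The genotype effect kept Gins1, Mcm5 and Prim1, and the running effect kept Pole and gained Cdc6, lower at -0.84. Over all 17317 genes these fits called 553 higher and 603 lower in Set B, 514 and 504 in Set C and 1025 and 909 in Set D. For genotype they called 569 and 553, and for running 913 and 695. Set E holds none of those libraries. Sets C and D hold only p16 WT CTL replicate 2 of them, so their fits are the same as those without that library alone.

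Marker lists moved in these sets too, and their part in the calls above was not tested. In Set E the mitosis list had 6 of 14 genes higher and 0 lower (a summed level of 17.9 to 19.6 TPM against 14.1 to 16.6 TPM in the running wild-type mice), the list of neuroblasts and newborn neurons 4 of 8 higher (274 to 416 against 214 to 296 TPM) and the CA pyramidal list 2 of 7 lower (342 to 503 against 396 to 536 TPM). The lists of oligodendrocyte precursors, microglia, endothelium and choroid plexus had 1 gene higher each there, and the astrocyte list 1 lower. In Set B the nuclear RNA list had no call but the lowest median of these lists, -0.89 (479 to 2091 against 977 to 2533 TPM), and the oligodendrocyte list 1 of 6 higher with a median of 0.41 (1458 to 2426 against 980 to 2037 TPM). The neural stem cell list had 3 higher and 1 lower of 8 (747 to 1117 against 637 to 815 TPM in the sedentary wild-type mice), that of oligodendrocyte precursors 3 of 6 higher (188 to 227 against 165 to 199 TPM), and the CA pyramidal and microglia lists 2 of 7 higher each. The mitosis list had 1 of 14 higher in Set B, with a median of -0.20 (10.1 to 15.4 against 11.5 to 19.6 TPM), and the neuroblast list 1 of 8 higher. In Set D the mitosis list had 3 of 14 higher, the neural stem cell list 2 of 8 higher, the oligodendrocyte precursor list 2 of 6 higher and the neuroblast list 2 higher and 1 lower of 8. The nuclear RNA list had 1 higher there, and the CA pyramidal and blood lists 1 lower each. In Set C 1 gene of all these lists was called, in the CA pyramidal list, and higher. With running on average the endothelium list had 3 of 6 higher, the nuclear RNA list 2 of 8 higher, the microglia list 3 of 7 lower, the astrocyte list 2 of 6 lower and the CA pyramidal list 2 of 7 lower, with 2 higher and 1 lower of 6 genes of meninges and fibroblasts and 1 higher and 2 lower of 8 of neural stem cells. The lists of mitosis, granule neurons and oligodendrocyte precursors each had 1 gene higher, and those of neuroblasts, oligodendrocytes and choroid plexus 1 lower. With genotype on average the mitosis list had 3 of 14, the neuroblast list 3 of 8, the oligodendrocyte precursor list 3 of 6 and the microglia list 2 of 7 higher. The neural stem cell and choroid plexus lists had 1 gene higher each. In the interaction 5 of 14 mitosis genes were called higher and 3 of 7 CA pyramidal genes lower, with 1 neuroblast gene higher and 1 gene lower each of the oligodendrocyte (median -0.56) and neural stem cell lists, and the nuclear RNA list, without a call, had a median of 0.87.

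Among the helicase genes Mcm5 had the most calls. The gene (chr8:75109509-75128439, plus strand, mm10) was at 5.24, 4.72, 4.74 and 6.54 TPM in the p16 WT CTL libraries, 3.43, 3.61, 3.17 and 4.07 in p16 KO CTL, 5.40, 6.27, 5.62 and 5.37 in the p16 WT RUN libraries and 4.29, 6.13, 4.67 and 4.73 in p16 KO RUN. All 4 p16 KO CTL libraries lay below every library of the other groups. Mcm5 showed a log2 fold change of 0.39 (SE 0.15, limma p = 0.0310, adjusted p = 0.241, exact permutation p = 0.0286) in Set A, and a log2 fold change of -0.49 (SE 0.15, limma p = 0.00794, adjusted p = 0.625, exact permutation p = 0.0286) in Set B. The exact p of 0.0286 is the smallest that 4 against 4 libraries allow. In the averages it was -0.34 (95% interval -0.55 to -0.14, adjusted p = 0.674) for genotype and 0.24 (95% interval 0.033 to 0.45, adjusted p = 0.220) for running. The genotype average held under each of the 11 alternatives run and without each library in turn. Without the 3 libraries low in nuclear RNA the values were 0.37 in Set A and -0.50 in Set B, about as large but no longer called on fewer libraries, and the call of Set A was also lost without p16 KO CTL replicate 5, p16 KO CTL replicate 7 or p16 KO RUN replicate 14.

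Mcm7 (chr5:138164589-138171862, minus strand), which hosts the microRNA genes Mir25, Mir93 and Mir106b on its own strand, was at 12.5, 10.7, 16.0 and 14.6 TPM in the p16 WT CTL libraries, 12.1, 11.5, 11.2 and 10.0 in p16 KO CTL, 12.5, 13.6, 12.5 and 12.4 in the p16 WT RUN libraries and 12.8, 13.1, 13.5 and 14.5 in p16 KO RUN. The p16 KO RUN libraries lay above all p16 KO CTL libraries, and within the wider range of p16 WT CTL. In Set A it showed a log2 fold change of 0.20 (SE 0.086, limma p = 0.0446, adjusted p = 0.264, exact permutation p = 0.0286), a call lost without any of 5 of the 8 libraries, namely p16 KO CTL replicates 5 and 8 and p16 KO RUN replicates 14, 15 and 16. Mcm2, a partner of Mcm5 in the ring, was at 4.77, 4.69, 4.60 and 4.97 TPM in the p16 WT CTL libraries, 4.12, 4.03, 2.66 and 4.17 in p16 KO CTL, 4.76, 6.01, 4.95 and 5.60 in the p16 WT RUN libraries and 4.43, 6.90, 4.07 and 4.90 in p16 KO RUN. Its values missed the limma threshold in every comparison, at 0.36 (95% interval -0.11 to 0.82, adjusted p = 0.360) in Set A and -0.30 (95% interval -0.65 to 0.053, adjusted p = 0.625) in Set B, and p16 KO CTL replicate 7 lay well below the rest of its group. In Set B all p16 KO CTL libraries of Mcm2 lay below those of p16 WT CTL, with an exact permutation p = 0.0286, the smallest possible.

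**Figure D3:**
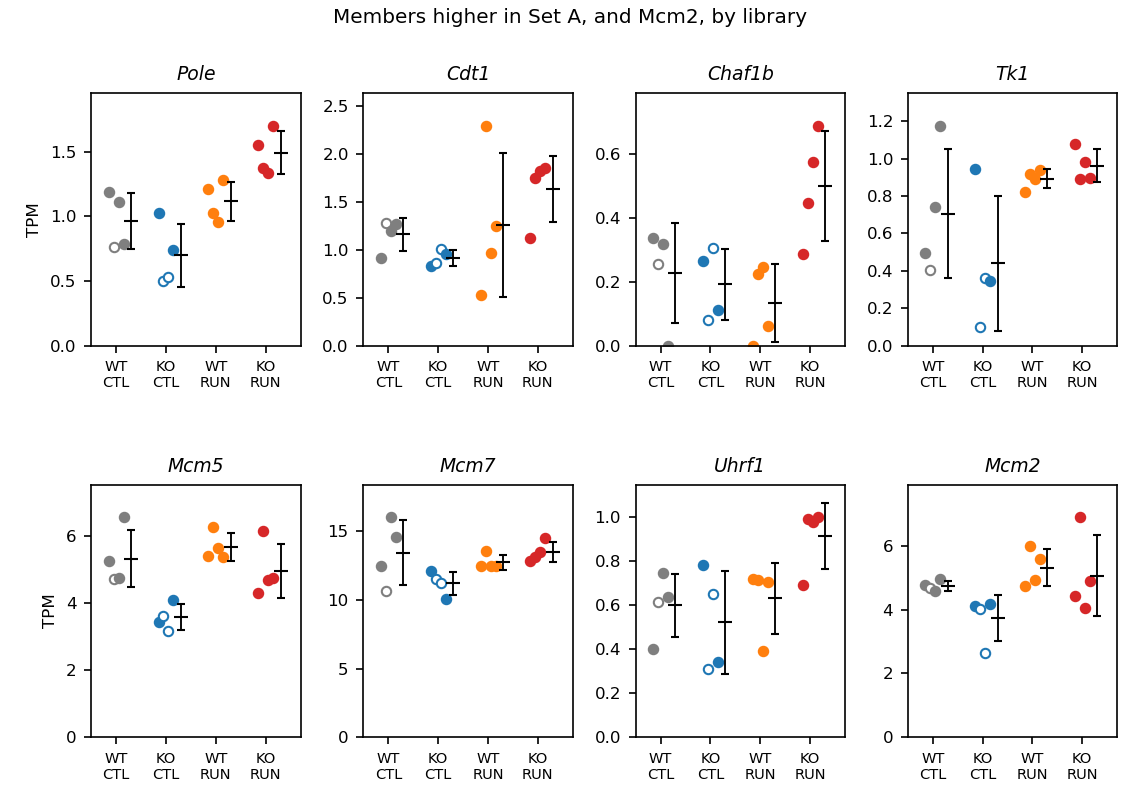
TPM in every library of the 7 genes called higher in Set A, and of Mcm2, which was not; points are libraries in replicate order within each group, open points the 3 libraries low in nuclear RNA, and the bar beside each group gives its mean with SD (n = 4). The 4 p16 KO RUN libraries of Pole, at 1.34 to 1.70 TPM, lie above every other library, and the 4 p16 KO CTL libraries of Mcm5, at 3.17 to 4.07 TPM, below every other.

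Gins1 (chr2:150909594-150931280, plus strand), a subunit of the GINS complex, was at 0.836, 1.29, 1.57 and 1.33 TPM in the p16 WT CTL libraries, 1.47, 1.73, 1.48 and 1.60 in p16 KO CTL, 1.16, 1.02, 1.54 and 0.596 in the p16 WT RUN libraries and 1.50, 1.91, 3.10 and 1.71 in p16 KO RUN. The knockout libraries lay between 1.47 and 3.10 TPM and those of wild-type mice between 0.596 and 1.57 TPM, so the genotypes overlapped narrowly, and p16 KO RUN replicate 15 stood highest. Gins1 showed a log2 fold change of 0.89 (SE 0.31, limma p = 0.0179, adjusted p = 1.00, exact permutation p = 0.0571) in Set E and a log2 fold change of 0.64 (SE 0.27, limma p = 0.0426, adjusted p = 0.556, exact permutation p = 0.0571) in Set D. Without p16 KO RUN replicate 15 Set E gave 0.68, no longer called, and the call of Set D was lost without that library, p16 WT CTL replicates 1, 2 or 4, or p16 KO RUN replicate 14. The genotype average, 0.64 (95% interval 0.23 to 1.04, adjusted p = 0.674), kept its call without each library in turn. Gins4 (chr8:23226610-23237668, minus strand), of the same complex, was at 29.6, 31.4, 27.5 and 27.5 TPM in the p16 WT CTL libraries, 22.0, 29.9, 24.2 and 29.7 in p16 KO CTL, 30.8, 26.3, 27.1 and 23.0 in the p16 WT RUN libraries and 23.6, 27.0, 23.5 and 25.0 in p16 KO RUN. In Set D it showed a log2 fold change of -0.23 (SE 0.087, limma p = 0.0263, adjusted p = 0.494, exact permutation p = 0.0857), and without p16 WT CTL replicates 1 or 2 or p16 KO RUN replicates 13, 15 or 16 the call was lost. In deposited TPM the p16 KO RUN values lay just below all those of p16 WT CTL, while after scaling the groups overlapped. The sign of Gins1 and of Gins4 differed in Set D although their proteins form the same complex.

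Mcm6 (chr1:128331591-128359656, minus strand) was the most abundant helicase gene, at 28.7, 21.8, 41.7 and 35.0 TPM in the p16 WT CTL libraries, 33.2, 33.3, 25.4 and 17.6 in p16 KO CTL, 35.8, 28.4, 35.9 and 29.2 in the p16 WT RUN libraries and 30.5, 32.9, 29.6 and 42.9 in p16 KO RUN. Its spread within groups was wide, from 17.6 to 33.3 TPM in p16 KO CTL alone, and no comparison was called, Set A standing at 0.27 (95% interval -0.19 to 0.73, adjusted p = 0.472). The level of Mcm6 followed that of the dentate granule neuron markers over the 16 libraries, with a Pearson r of 0.959 (permutation p = 1e-05, the smallest that 100000 resamples can give, adjusted p = 0.00518) and a Spearman rho of 0.924 (permutation p = 1e-05). Without the 2 libraries farthest from the median of the marker sum r was 0.894, within groups, after each group's mean was taken off, it was 0.959, and without the 3 libraries low in nuclear RNA 0.957. In all 518 relations were computed, each of the 37 genes with each of 14 lists, and this was the only relation of the 518 with an adjusted p under 0.05 by both Pearson's and Spearman's measure. Mcm6 ran opposite to the lists of CA pyramidal neurons (r = -0.847, permutation p = 5e-05, adjusted p = 0.013, rho = -0.809, permutation p = 0.00034) and of oligodendrocytes (r = -0.818, permutation p = 9e-05, adjusted p = 0.0155, rho = -0.779, permutation p = 0.00073), with r at -0.676 and -0.732 without the 2 libraries farthest from the median. TPM is a share of a fixed total, so levels of lists that make up a library are not free of each other. The permutations of these relations, and of those given below for Pole and Tk1, shuffled all 16 libraries without regard to group. Their p-values therefore also take in differences between the groups, and no p-value is given for r within groups.

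**Figure D4:**
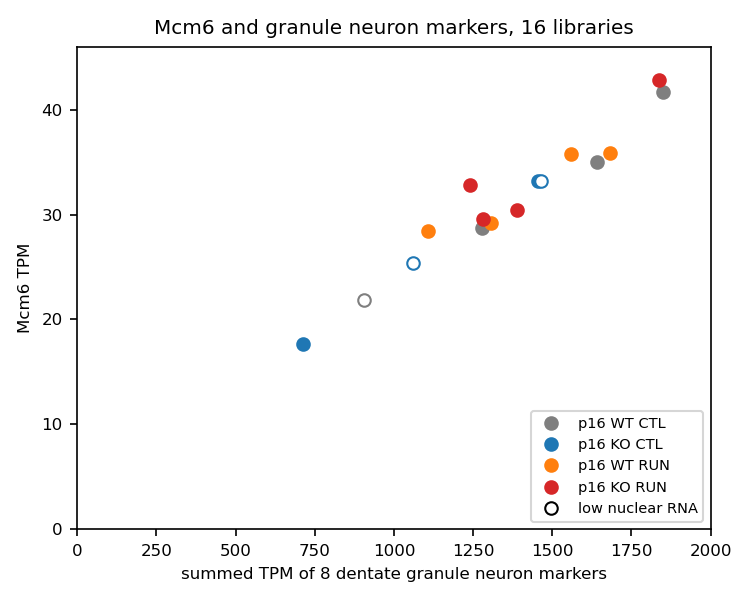
Level of Mcm6 in TPM against the summed TPM of 8 dentate granule neuron markers (Prox1, Calb1, C1ql2, C1ql3, Dsp, Stxbp6, Lct and Dock10); each point is a library, colours give the groups and open points the 3 libraries low in nuclear RNA. The points rise together from p16 KO CTL replicate 8, at 714 and 17.6 TPM, to the libraries at 1838 and 1848 TPM of markers, and libraries of all 4 groups lie along the same course.

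The other 6 helicase genes had no call in any comparison. Mcm4 averaged 10.5 TPM with a log2 fold change of 0.098 in Set A, Mcm3 3.35 TPM with 0.22, Gins2 3.72 TPM with -0.052, Gins3 3.49 TPM with -0.24, Cdc45 1.85 TPM with 0.097 and Mcm10 0.307 TPM with 0.26. Their 95% intervals in Set A reached from -0.82 to 1.33 for Mcm10 and from -0.17 to 0.37 for Mcm4, so the precision differed several fold between them. The Gins2 gene shares 118 bases with Gse1 on the opposite strand, and the sources used here do not state whether the counting used strand.

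Of the pair of licensing genes, Cdt1 was called and Cdc6 was not. Cdt1 (chr8:122568015-122573130, plus strand), which brings the Mcm ring to origins, was at 0.911, 1.28, 1.19 and 1.27 TPM in the p16 WT CTL libraries, 0.831, 0.861, 1.01 and 0.961 in p16 KO CTL, 0.533, 2.30, 0.964 and 1.25 in the p16 WT RUN libraries and 1.13, 1.75, 1.83 and 1.85 in p16 KO RUN. The p16 KO RUN libraries lay above all those of p16 KO CTL, and the p16 WT RUN libraries spread on both sides of them. Cdt1 showed a log2 fold change of 0.70 (SE 0.22, limma p = 0.0115, adjusted p = 0.203, exact permutation p = 0.0286) in Set A, a call that held without each library in turn and under 11 of the 12 alternatives run, quantile normalization being the exception (0.43). Over the alternatives its value in Set A ran from 0.42 to 0.79. In Set D it was 0.44 (95% interval -0.052 to 0.94, adjusted p = 0.626) and in Set E 0.50 (95% interval -0.37 to 1.37, adjusted p = 1.00). Cdc6, at 0.173 TPM the lowest of the 37, ranged from 0 to 0.394 TPM, with -0.31 (95% interval -1.32 to 0.70, adjusted p = 0.716) in Set A.

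Among the polymerase and primase genes Pole (chr5:110286319-110337453, plus strand), which makes the leading strand, was at 1.19, 0.765, 1.11 and 0.789 TPM in the p16 WT CTL libraries, 1.03, 0.499, 0.528 and 0.744 in p16 KO CTL, 1.21, 1.03, 0.955 and 1.28 in the p16 WT RUN libraries and 1.56, 1.38, 1.34 and 1.70 in p16 KO RUN. All 4 p16 KO RUN libraries stood above every library of the other groups, and p16 KO CTL replicates 6 and 7 stood lowest. Pole showed a log2 fold change of 0.98 (SE 0.24, limma p = 0.00254, adjusted p = 0.157, exact permutation p = 0.0286) in Set A, a fold of 1.97, and a log2 fold change of 0.60 (SE 0.20, limma p = 0.0159, adjusted p = 0.438, exact permutation p = 0.0286) in Set D. In Set E it was 0.40 (95% interval -0.0078 to 0.80, adjusted p = 1.00) and in Set C 0.20 (95% interval -0.30 to 0.70, adjusted p = 0.986). The running average was 0.59 (95% interval 0.26 to 0.91, adjusted p = 0.0819), and the calls of Sets A and D and of the running average held under every alternative run and without each library in turn. The values in Set A ran from 0.54 at a pseudocount of 1 to 1.14 without p16 KO CTL replicate 5, and the interaction lost its call under quantile normalization, with a nuclear RNA score as covariate and without the 3 libraries low in nuclear RNA, of which 2 are the lowest Pole libraries. Pole also followed the summed level of the mitosis list over the 16 libraries (r = 0.783, permutation p = 0.00038, adjusted p = 0.0394, rho = 0.7, permutation p = 0.00355), with r at 0.589 without the 2 libraries farthest from the median and 0.452 within groups, and 0.496 without the 3 libraries low in nuclear RNA. With the endothelium list r was 0.763 (permutation p = 0.00054, adjusted p = 0.0466), and rho 0.421 (permutation p = 0.106), and r was 0.299 without the 3 libraries low in nuclear RNA, so that relation rests on those libraries.

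Prim1 (chr10:128015215-128030030, plus strand), the catalytic subunit of primase, was at 6.17, 7.24, 7.21 and 7.89 TPM in the p16 WT CTL libraries, 6.34, 6.54, 4.38 and 3.94 in p16 KO CTL, 8.19, 6.37, 7.34 and 7.53 in the p16 WT RUN libraries and 5.25, 6.42, 6.06 and 6.55 in p16 KO RUN. The wild-type libraries reached from 6.17 to 8.19 TPM and the knockout libraries from 3.94 to 6.55 TPM, and p16 KO CTL replicates 7 and 8 stood lowest. Prim1 showed a log2 fold change of -0.27 (SE 0.11, limma p = 0.0434, adjusted p = 1.00, exact permutation p = 0.0857) in Set E, where leaving out p16 WT RUN replicates 9, 11 or 12 or p16 KO RUN replicates 13 or 15 ended the call. The genotype average, -0.33 (95% interval -0.56 to -0.099, adjusted p = 0.674), held under the 11 alternatives run and without each library in turn. Pola1, Pola2, Pold1 and Pole2 had no call. Their log2 fold changes in Set A were -0.18, 0.13, 0.068 and 0.15, at mean levels of 2.55, 6.05, 5.60 and 0.525 TPM. Pole and Pole2 are subunits of the same enzyme, and where Pole was higher in Set A Pole2 had an interval of -0.89 to 1.18, wide enough to hold the value of Pole.

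The clamp, its loader and the proteins of the lagging strand were the most abundant and the steadiest role, with a median coefficient of variation of 9.75%. Pcna (chr2:132249286-132253180, minus strand), the sliding clamp, was at 83.9, 85.8, 83.8 and 84.9 TPM in the p16 WT CTL libraries, 84.3, 88.1, 81.1 and 76.5 in p16 KO CTL, 81.4, 78.6, 84.3 and 83.1 in the p16 WT RUN libraries and 82.7, 78.3, 74.7 and 78.8 in p16 KO RUN. The 4 p16 KO RUN libraries lay below the 4 p16 WT CTL libraries, while the other pairs of groups overlapped. In Set A Pcna stood at -0.13 (95% interval -0.28 to 0.010, adjusted p = 0.295). The running average was -0.097 (95% interval -0.18 to -0.015, adjusted p = 0.214), a fold of 0.935, lost with TPM as deposited, with the nuclear RNA covariate and without the 3 libraries low in nuclear RNA, p16 KO CTL replicate 6 or p16 KO RUN replicate 15. Rpa2 (chr4:132768360-132778746, plus strand), which covers single stranded DNA, was at 16.0, 16.5, 17.2 and 15.4 TPM in the p16 WT CTL libraries, 14.5, 14.8, 13.8 and 12.9 in p16 KO CTL, 15.1, 11.9, 14.7 and 13.8 in the p16 WT RUN libraries and 13.7, 13.8, 13.0 and 13.5 in p16 KO RUN. In deposited TPM the 4 p16 WT CTL libraries lay above every library of the other groups, while after scaling they overlapped p16 KO CTL. Rpa2 showed a log2 fold change of -0.28 (SE 0.072, limma p = 0.00382, adjusted p = 0.302, exact permutation p = 0.0286) in Set D and a log2 fold change of -0.25 (SE 0.091, limma p = 0.0233, adjusted p = 0.9853, exact permutation p = 0.0286) in Set C, with the running average at -0.18 (95% interval -0.30 to -0.063, adjusted p = 0.130). The call of Set D held under the 12 alternatives run and without each library, while that of Set C was lost without p16 WT CTL replicates 2 or 3 or p16 WT RUN replicate 10. In both sets leaving out the 3 libraries low in nuclear RNA is the same fit as leaving out p16 WT CTL replicate 2 alone.

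Rfc2 (chr5:134582690-134598328, plus strand), a small subunit of the clamp loader, was at 40.0, 38.8, 37.6 and 39.9 TPM in the p16 WT CTL libraries, 36.5, 32.3, 29.7 and 36.3 in p16 KO CTL, 44.4, 34.2, 37.2 and 36.0 in the p16 WT RUN libraries and 38.1, 38.8, 34.7 and 32.6 in p16 KO RUN. In deposited TPM all p16 KO CTL libraries lay below those of p16 WT CTL, while after scaling the groups overlapped. Rfc2 showed a log2 fold change of -0.16 (SE 0.068, limma p = 0.0467, adjusted p = 0.625, exact permutation p = 0.0571) in Set B, a call kept under 7 of 12 alternatives and lost without p16 WT CTL replicates 1, 2 or 4 or p16 KO CTL replicates 5, 6 or 7. Rfc3, Rfc4 and Rfc5, its partners in the loader, had no call in Set B (-0.15, 0.21 and -0.091) or in any other comparison. Rfc4 shares 185 bases with Eif4a2 on the opposite strand, a gene at 595 TPM, and reads of the pair cannot be told apart there unless strand was used. Fen1, which trims Okazaki fragments, and Lig1, which joins them, were at 15.4 and 5.11 TPM with 0.016 (95% interval -0.15 to 0.18) and 0.22 (95% interval -0.056 to 0.50) in Set A. Lig1 shares 1409 bases with 6330408A02Rik on the opposite strand.

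**Figure D5:**
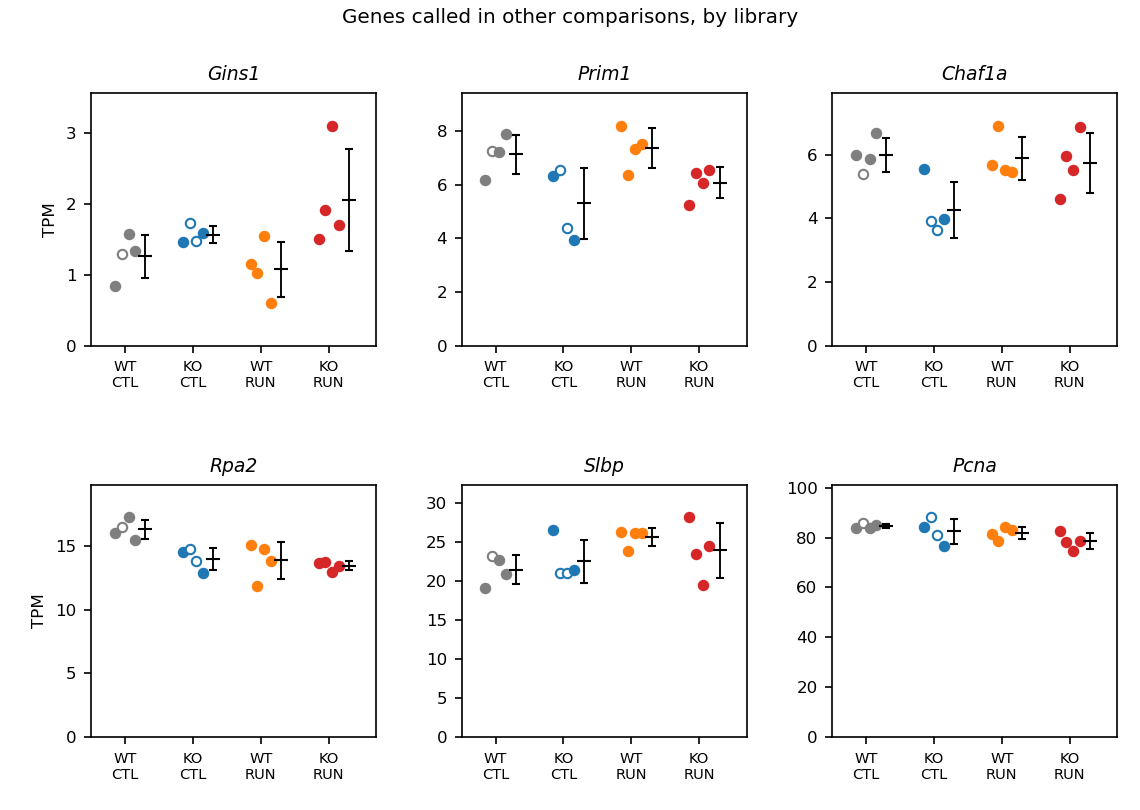
TPM in every library of Gins1, Prim1, Chaf1a, Rpa2, Slbp and Pcna, which were called in comparisons other than Set A; points are libraries, open points the 3 libraries low in nuclear RNA, and the bar beside each group gives its mean with SD (n = 4). The 4 p16 WT CTL libraries of Rpa2, at 15.4 to 17.2 TPM as deposited, lie above every other library, a separation from p16 KO CTL that scaling removed.

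Of the genes of nucleotide supply Tk1 (chr11:117815519-117826014, minus strand), which salvages thymidine, was at 0.496, 0.406, 0.744 and 1.18 TPM in the p16 WT CTL libraries, 0.947, 0.101, 0.362 and 0.347 in p16 KO CTL, 0.822, 0.917, 0.890 and 0.942 in the p16 WT RUN libraries and 1.08, 0.892, 0.980 and 0.899 in p16 KO RUN. The p16 KO CTL libraries were split, with replicate 5 at 0.947 TPM inside the range of p16 KO RUN and the others at 0.101 to 0.362 TPM. Tk1 showed a log2 fold change of 1.17 (SE 0.44, limma p = 0.0255, adjusted p = 0.234, exact permutation p = 0.0857) in Set A and a running average of 0.78 (95% interval 0.20 to 1.35, adjusted p = 0.165). The value of Set A was 0.64 with the nuclear RNA covariate and 0.62 without the 3 libraries low in nuclear RNA, no longer called in either, and the call was also lost without p16 KO RUN replicates 13 (1.12) or 15 (1.16). It was 0.78 without p16 KO CTL replicate 6, the lowest library, and 0.46 at a pseudocount of 1, still called in both. The running average of Tk1 lost its call with that covariate and without the 3 libraries, and stood at 0.41 without them. Over the 16 libraries Tk1 followed the mitosis list (r = 0.808, permutation p = 0.0002, adjusted p = 0.0259, rho = 0.668, permutation p = 0.00617), with r at 0.745 without the 2 libraries farthest from the median, 0.686 within groups and 0.652 without the 3 libraries low in nuclear RNA. It followed the nuclear RNA list about as closely (r = 0.801, permutation p = 0.00172, adjusted p = 0.0881, rho = 0.726, permutation p = 0.00238), with r at 0.612 without the 2 farthest libraries, 0.676 within groups and 0.453 without those 3 libraries. For Pole that relation was 0.723 (permutation p = 0.00183, adjusted p = 0.0881, rho = 0.359, permutation p = 0.172), with r at 0.290 without the 2 farthest libraries and -0.11 without those 3, so it rests on them. Tk1 shares 96 bases with Afmid on the opposite strand. Dut (chr2:125247248-125259049, plus strand), which keeps uracil out of DNA, was the highest of this role, at 29.2, 26.0, 28.9 and 30.3 TPM in the p16 WT CTL libraries, 27.4, 27.4, 26.6 and 25.6 in p16 KO CTL, 32.7, 26.3, 30.7 and 26.9 in the p16 WT RUN libraries and 28.5, 26.9, 26.1 and 27.4 in p16 KO RUN. Its groups overlapped, and in Set A it was -0.040 (95% interval -0.18 to 0.097, adjusted p = 0.732). Rrm1 and Rrm2, the large and the small subunit of ribonucleotide reductase, were at 12.8 and 1.17 TPM, with -0.040 (95% interval -0.26 to 0.18) and 0.49 (-0.20 to 1.18) in Set A. Tyms, thymidylate synthase, was at 2.02 TPM with 0.18 (-0.20 to 0.55), and its reads may be shared with the pseudogene Tyms-ps.

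Of the chromatin genes Chaf1b (chr16:93883901-93906106, plus strand) was at 0.337, 0.255, 0.320 and 0 TPM in the p16 WT CTL libraries, 0.267, 0.0809, 0.307 and 0.113 in p16 KO CTL, 0, 0.226, 0.247 and 0.0610 in the p16 WT RUN libraries and 0.287, 0.447, 0.577 and 0.689 in p16 KO RUN. The p16 KO RUN libraries lay above all 4 p16 WT RUN libraries and overlapped p16 KO CTL by a single library. Chaf1b showed a log2 fold change of 1.49 (SE 0.47, limma p = 0.0112, adjusted p = 1.00, exact permutation p = 0.0286) in Set E and a log2 fold change of 1.03 (SE 0.39, limma p = 0.0252, adjusted p = 0.233, exact permutation p = 0.0571) in Set A. The call of Set E held under the 10 alternatives run that kept the gene and without each library in turn. Its values ran from 0.40 at a pseudocount of 1 to 2.58 at 0.01 on the log2 scale. The alternative without the 3 libraries low in nuclear RNA is the same fit here and could not differ, because Set E holds none of them. In Set A the value ran from 0.32 at a pseudocount of 1 to 1.39 at 0.01, and the call was lost without p16 KO CTL replicates 6 or 8 or p16 KO RUN replicates 15 or 16. Chaf1a (chr17:56040416-56068026, plus strand), its partner in CAF-1, was at 5.98, 5.39, 5.88 and 6.69 TPM in the p16 WT CTL libraries, 5.56, 3.92, 3.63 and 3.96 in p16 KO CTL, 5.67, 6.90, 5.51 and 5.47 in the p16 WT RUN libraries and 4.61, 5.97, 5.51 and 6.88 in p16 KO RUN. In Set B it showed a log2 fold change of -0.43 (SE 0.14, limma p = 0.0125, adjusted p = 0.625, exact permutation p = 0.0286), with p16 KO CTL replicate 5 near the wild-type libraries and the other 3 below. The call held without each library in turn, and without the 3 libraries low in nuclear RNA the value was -0.35, no longer called. The genotype average of -0.24 (95% interval -0.45 to -0.024, adjusted p = 0.674) was lost without any of 7 of the 16 libraries, p16 WT CTL replicate 4, p16 KO CTL replicates 6, 7 and 8, p16 WT RUN replicate 10 and p16 KO RUN replicates 13 and 15. In Set E Chaf1a was -0.037 (95% interval -0.37 to 0.29, adjusted p = 1.00), so the subunits of CAF-1 were not called together in any pairwise comparison.

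Uhrf1 (chr17:56303337-56323486, plus strand) was at 0.401, 0.615, 0.744 and 0.634 TPM in the p16 WT CTL libraries, 0.782, 0.308, 0.651 and 0.343 in p16 KO CTL, 0.718, 0.715, 0.390 and 0.704 in the p16 WT RUN libraries and 0.691, 0.990, 0.978 and 0.998 in p16 KO RUN. Of the p16 KO RUN libraries 3 lay above every other library, and replicate 13 fell within the p16 KO CTL range. In Set A it showed a log2 fold change of 0.72 (SE 0.31, limma p = 0.0460, adjusted p = 0.266, exact permutation p = 0.0857), lost without p16 KO CTL replicates 6 or 8, p16 KO RUN replicates 14, 15 or 16 or the 3 libraries low in nuclear RNA (then 0.67). It was 0.32 at a pseudocount of 1, still called, and 0.45 under quantile normalization, not called. Slbp (chr5:33640055-33652574, minus strand), which binds the stem-loop of histone mRNAs, was the highest of this role, at 19.1, 23.2, 22.7 and 20.9 TPM in the p16 WT CTL libraries, 26.6, 21.0, 21.1 and 21.4 in p16 KO CTL, 26.3, 23.9, 26.2 and 26.2 in the p16 WT RUN libraries and 28.2, 23.5, 19.5 and 24.6 in p16 KO RUN. In Set C it showed a log2 fold change of 0.24 (SE 0.085, limma p = 0.0177, adjusted p = 0.9853, exact permutation p = 0.0571), a call held under the 12 alternatives run and lost without p16 WT CTL replicate 1 (0.19). In deposited TPM the p16 WT RUN libraries lay above all those of p16 WT CTL, and after scaling the groups overlapped.

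The 37 genes did not vary as a single block over the 16 libraries. The median Pearson r of scaled log2 levels over their 666 pairs was 0.058, from -0.72 (Cdt1 and Dut) to 0.81 (Mcm2 and Mcm5), where all pairs share the same libraries. Mcm6 and Mcm7 followed at 0.76 and Mcm5 and Chaf1a at 0.72, whereas Pcna ran opposite to Pole (-0.71) and to Tk1 (-0.70). Summed over the 37, the level was 346 to 387 TPM in the sedentary knockouts, 379 to 414 in the sedentary wild-type mice, 381 to 413 in p16 WT RUN and 368 to 409 in p16 KO RUN, and Pcna alone made up 74.7 to 88.1 TPM of it. The lowest library was p16 KO CTL replicate 8, which was also lowest in granule neuron markers.

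Beyond the 37, a list of 53 other genes of the pathway was read from the same fits, of which 51 passed the filter. In Set A 3 were higher and 3 lower, 6 of 51 against the 18.5% of all genes called, with a median of 0.052: Ccna2, the cyclin of S phase and G2, at 0.97, Recql4 at 0.91 and Wdhd1, which links the helicase to polymerase alpha, at 0.67 were higher, and Mcm8 at -0.33, Orc5 of the origin recognition complex at -0.28 and Pole4, a small subunit of polymerase epsilon, at -0.39 were lower. Pole and Pole4 thus differed in sign in Set A. The backgrounds in either direction were 6.69%, 4.81%, 8.63% and 3.87% of all genes for Sets B to E in that order. In Set B 1 was higher (Pole4, 0.30) and 3 lower (Wdhd1 at -0.98, Recql4 at -0.62 and Orc3 at -0.19). In Set C 1 was higher (Mcmbp, 0.20) and 0 lower. In Set D 1 was higher (Gmnn, the inhibitor of Cdt1, 0.37) and 4 lower (Rnaseh2b at -0.41, Mcm8 at -0.36, Orc5 at -0.26 and Dtymk at -0.15). In Set E 1 was higher (Ccna2, 0.61) and 1 lower (Orc4, -0.18). The interaction called Ccna2 (1.13) and Pole4 (-0.35), the running average 2 higher and 5 lower and the genotype average 1 higher and 2 lower, against 5.48%, 17.9% and 7.12% of all genes. No adjusted p of this list was under 0.05 in any of the 8 comparisons, the smallest being 0.115.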

How the data were processed

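From total RNA of the dentate gyrus 16 mRNA libraries had been made and sequenced, and per the labels the authors used bcl2fastq 2.20, Cutadapt 1.11, STAR, StringTie, HTSeq and DESeq2 with mouse build mm10. The deposited StringTie tables hold TPM, computed by the authors per transcript length and library size. FPKM, per kilobase and library size, and coverage, the mean depth per base, were made by the authors in the same run. No read counts were used here, so counting errors of low values are unknown. The deposited genotype and treatment labels gave 4 groups of 4 libraries. Each library is a pool of 2 mice, so the spread is between pools.

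Rows with the same gene name were summed, each library was divided by its median ratio to the mean library over 13226 genes at 1 TPM or more throughout, and the 17317 genes averaging 0.1 TPM or more entered limma 3.58.1 in R 4.3.3 (empirical Bayes with a variance trend) as log2(scaled TPM + 0.1), a scale that understates the change of low genes. Sets A to E were fitted on their 8 libraries, the interaction and the averages on all 16. Genes were called at an unadjusted p under 0.05, the study's threshold, with Benjamini-Hochberg values over all tested genes beside it. Exact permutation tests were two-sided over 70 splits. The 37 genes and all lists were chosen with earlier results of these data known. Values are given per library for genes called in any comparison, the highest gene of each role, Pcna and Mcm2, and of the 53 other pathway genes up to 6 called ones per comparison were named. Motifs were searched in RefSeq promoter windows. Alternatives were other filters, pseudocounts, scalings and units, fits without the variance trend or over all libraries, the highest value per name, a nuclear RNA covariate and leaving out libraries.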

Additional observations from a re-analysis of the deposited data

Results flagged for a closer look

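Over the 37 genes in 4 groups, 148 sets of 4 values were searched for a library far from the others of its group, and 12 were found, where chance gives about 1 in 20, or 7.4. In p16 KO CTL, replicate 7 was low in Mcm2 at 2.66 TPM (others 4.03 to 4.17), replicate 8 was low in Mcm3 at 2.66 TPM (3.19 to 3.22) and high in Mcm10 at 0.745 TPM (0.0971 to 0.180), and replicate 5 was high in Slbp at 26.6 TPM (21.0 to 21.4). In p16 WT RUN, replicate 10 was high in Mcm7 at 13.6 TPM (12.4 to 12.5) and in Chaf1a at 6.90 TPM (5.47 to 5.67) and low in Slbp at 23.9 TPM (26.2 to 26.3), and replicate 11 was low in Uhrf1 at 0.390 TPM (0.704 to 0.718). In p16 KO RUN, replicate 13 was low in Cdt1 at 1.13 TPM (1.75 to 1.85) and in Uhrf1 at 0.691 TPM (0.978 to 0.998), and replicate 16 was high in Pold1 at 6.42 TPM (5.46 to 5.62). In p16 WT CTL, replicate 2, a library low in nuclear RNA, was low in Pola2 at 4.54 TPM (6.62 to 6.92). Replicate 10 of p16 WT RUN, the shallowest library, appears 3 times.

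The effect of running on Pole differed between the genotypes in the interaction, at 0.78 on the log2 scale (SE 0.31, limma adjusted p = 0.797), which does not pass correction over all genes. It was no longer called under quantile normalization, with the nuclear RNA covariate or without the 3 libraries low in nuclear RNA (0.56), and 1 call in 37 stands beside 5.48% of all genes. All 4 p16 KO RUN libraries lay above the 4 p16 KO CTL libraries, while the groups of Set C overlapped.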

How the results depend on the processing

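No call on a single gene changed sign under any alternative run. With limma 0 of the 37 genes passed 0.05 after adjustment in any of the 8 comparisons, except in the running average. There 2 passed when replicate 5 of p16 KO CTL was left out, beside 416 of all 17317 genes, where 130 did with every library kept. How many of the 37 were called, and their median log2 fold change, moved as follows. In Set A 4 were called at a mean TPM of at least 1, beside 1599 higher and 1283 lower of 14438 genes. Quantile normalization called 2, beside 1534 higher and 1546 lower of 17317 genes, and the nuclear RNA score as covariate 3, beside 938 and 694. Without the 3 libraries low in nuclear RNA, chosen after seeing the data, 4 were called, beside 849 higher and 621 lower of all genes. Leaving out each library gave 3 to 7 (3 without p16 KO RUN replicate 15, 4 without p16 KO RUN replicate 14 or 16). Without p16 KO RUN replicate 15, 1408 of all genes were higher and 1032 lower, and without p16 KO CTL replicate 5, 2773 and 1965. The median of the 37 in Set A was 0.19 with TPM as deposited and 0.025 under quantile normalization. In Set B 5 were called with TPM as deposited, beside 336 higher and 777 lower of all genes. Without the 3 libraries 0 were called, beside 553 and 603. The median in Set B was -0.086 at a pseudocount of 1 and -0.046 under quantile normalization. It was -0.15 to -0.086 when each library was left out, weakest without p16 KO CTL replicate 8. In Set C 1 was called without the 3 libraries, beside 514 higher and 504 lower of all genes. That fit is the same as the fit without p16 WT CTL replicate 2 alone. Leaving out each library gave 1 to 3 (1 without p16 WT CTL replicate 1, 2 or 3 or p16 WT RUN replicate 10). Without p16 WT RUN replicate 10, 288 of all genes were higher and 243 lower, and without p16 WT CTL replicate 3, 492 and 352. In Set D 7 were called with no variance trend, beside 865 higher and 562 lower of all genes. Without the 3 libraries 2 were called, beside 1025 and 909. Leaving out each library gave 2 to 7 (2 without p16 WT CTL replicate 2 or p16 KO RUN replicate 15, 7 without p16 KO RUN replicate 13). Without p16 KO RUN replicate 13, 815 of all genes were higher and 554 lower, and without p16 KO RUN replicate 15, 754 and 478. In Set E 5 were called with no variance trend, beside 399 higher and 302 lower of all genes. Leaving out each library gave 1 to 4, with 1 without p16 KO RUN replicate 15, beside 318 higher and 232 lower of all genes. The median in Set E was -0.020 at a mean TPM of at least 1 and -0.025 to 0.087 when each was left out. It was below 0 without p16 WT RUN replicate 12 or p16 KO RUN replicate 14 or 16.

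In the interaction 2 were called at a mean TPM of at least 1, with no filter, at pseudocounts of 1 and 0.01, with FPKM and without the 3 libraries. Of all genes 360 were higher and 394 lower of 14438 at a mean TPM of at least 1. They were 588 and 516 of 24421 with no filter and 465 and 399 of 16094 with FPKM. At a pseudocount of 1 they were 501 and 447 of 17317, and at 0.01 505 and 436. With TPM as deposited or no variance trend 3 were called, beside 609 higher and 306 lower and 505 and 400 of all genes. Quantile normalization called 0, beside 407 and 543. Leaving out each library gave 1 to 6 (6 without p16 WT RUN replicate 10, 5 without p16 KO RUN replicate 13, 1 without p16 WT RUN replicate 12 or p16 KO RUN replicate 14 or 15). Without p16 WT RUN replicate 10, 440 of all 17317 genes were higher and 362 lower, and without p16 KO RUN replicate 13, 442 and 380. Without the 3 libraries they were 650 and 605. Without p16 WT RUN replicate 12 they were 461 and 367. They were 486 and 442 without p16 KO RUN replicate 14 and 447 and 366 without p16 KO RUN replicate 15. The median of the 37 in the interaction was 0.099 at a mean TPM of at least 1, 0.12 at a pseudocount of 1 and 0.089 under quantile normalization. It was 0.13 with FPKM and 0.11 to 0.24 when each was left out. In the running average 3 were called with the nuclear RNA covariate, beside 893 higher and 709 lower of all genes. Without the 3 libraries 2 were called, beside 913 and 695. Leaving out each library gave 4 to 9 (9 without p16 KO CTL replicate 5, 8 without p16 WT RUN replicate 11 or p16 KO RUN replicate 13). After adjustment 0 to 2 passed 0.05, the 2 without p16 KO CTL replicate 5, beside 416 of all genes. All genes called were then 2382 higher and 1784 lower without p16 KO CTL replicate 5. They were 1566 and 1302 without p16 WT RUN replicate 11, and 1481 and 1205 without p16 KO RUN replicate 13. A mean of at least 1 TPM leaves 31 of the 37 genes to test. Outside Set A, and besides those named with the genes, the calls of Rpa2 (-0.22 in Set C, -0.13 for running), Mcm5 (running, 0.21), Gins1 (0.68) and Gins4 (-0.17, both Set D) and Chaf1a (genotype, -0.19) were lost without the 3 libraries at these values, on fewer libraries, while Rfc2 (Set B) went from -0.16 to -0.066, Tk1 (running) from 0.78 to 0.41 and Pcna (running) from -0.097 to -0.041. The nuclear RNA covariate ended those of Mcm5 and Tk1 (running), Gins1, Rfc2 and Chaf1a, quantile normalization those of Mcm5 (running), Gins1, Rfc2 and Chaf1a, a fit over all 16 libraries those of Prim1 (Set E), Gins4 and Rfc2, no variance trend that of Rfc2 and no filter that of Gins1. At a pseudocount of 1 smaller values, still called, were found for Gins1 (0.42 in Set D, 0.55 in Set E, 0.39 for genotype), Pole (0.35 in Set D, 0.32 for running, 0.43 in the interaction) and Tk1 (running, 0.32), and the nuclear RNA covariate gave 0.43 for Tk1 (running). The call of Mcm5 with running was also lost without p16 WT CTL replicate 3, p16 WT RUN replicate 10 or p16 KO RUN replicate 14. The causes of the other changes were not tested.

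Of all calls 58.1% were higher in Set A, and 77.9% with TPM as deposited. The share moved from 47.1% to 30.2% in Set B and from 55.2% to 73.0% in the running average. It moved from 54.4% to 35.1% in the genotype average and from 53.7% to 66.6% in the interaction. Quantile normalization gave 49.8% in Set A, 54.7% in Set B and 46.6% in the running average. Under it the genotype average stood at 58.0% and the interaction at 42.8%. No paired analysis was possible because the groups share no replicate numbers. With 4 pools a group the exact test cannot go below 0.0286. Of the 37 genes 6 lie under 1 TPM, where coverage is thin.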
